A study of Saccharomyces cerevisiae with 4 samples.

Results

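The zinc genes examined here are 9 genes of budding yeast (Saccharomyces cerevisiae), chosen by name from the 7126 features of the deposited gene table: the zinc transporter genes ZRT1, ZRT2, ZRT3, FET4, ZRC1 and COT1, the transcription factor gene ZAP1, the alcohol dehydrogenase gene ADH4 and the gene of a zinc-regulated cell surface protein, ZPS1. All 9 were in the table, all 9 passed the filter on low counts, and their counts per library ran from 193 to 6024. Polyadenylated RNA was sequenced from a wild-type strain (MH1006) and from a strain with the ulp1-I615N allele (MH1018), with 2 libraries each. ULP1 encodes a protease that matures the modifier protein SUMO and removes it from target proteins. The strains were of mating type a and shared the alleles leu2-3,112 and ura3-52, then trp1-289, ade2-delta and ade3-delta, as well as lys1::kanMX4, and both were grown in rich YPD medium to mid-log phase. Each genotype is represented by 1 strain. Separate cultures are not stated for the replicates, so the spread behind each p-value may be only technical.

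Budding yeast takes up zinc through the high-affinity transporter Zrt1, the low-affinity transporter Zrt2 and Fet4, a transporter of low affinity for iron that also carries zinc. Zrc1 and Cot1 move zinc into the vacuole, the main store, and Zrt3 lets it out. When zinc is scarce the activator Zap1 binds zinc-responsive elements (ZREs) in the promoters of most of these genes and of its own gene, and zinc represses its activity. ADH4 and ZPS1 are also Zap1 targets and are strongly induced in zinc shortage.

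Total counts per library ran from 13244131 to 26723470, and a count of 0 would allow up to 0.1123 to 0.2265 CPM (counts per 1000000 counted fragments, TMM-scaled in the comparisons), far below each zinc gene. This limit is 3 counts of a library's total and covers counting error alone. ADE2 and ADE3, which the labels give as deleted, were nevertheless counted between 1368 and 7104 times per library, whereas LYS1 had 4 or 5 counts, and ULP1, which carries a point mutation in the mutant, had 1116 to 2061. Genes of chromosome X were higher in both mutant libraries, by a median of 1.65-fold, so the ULP1 allele and the raised chromosome X cannot be told apart in this comparison. Of the zinc genes, ZAP1 alone lies on that chromosome. In the whole table, 1622 of 6139 tested genes were higher in the mutant and 1494 lower (edgeR quasi-likelihood test, adjusted p under 0.05), and with library totals as the only scaling this split became 2217 and 866, as the median of all genes moved to 0.14 on the log2 scale.

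Sites like the ZRE stand in most of the promoters of the zinc genes, and are shown first because they are the known link between these genes and Zap1. The 500 bases before each start codon were read from the R64 genome (the build named sacCer3 elsewhere) and searched on both strands for the palindrome made of ACCTT, any base and AAGGT. With no mismatch it was found before ZRT1 only among the 9 genes, and before 9 of 5986 protein-coding genes in all (0.150%). With at most 1 mismatch it was found before 6 of the 9 (ZRT1, ZRT2, ZRT3, ZAP1, ZRC1 and ZPS1) and before 118 of the 5986 (1.97%). FET4, COT1 and ADH4 had no such match in this window. The sites are printed below 5′ to 3′ on the strand of the gene, with the matched bases in capitals.
ZRT1, first site: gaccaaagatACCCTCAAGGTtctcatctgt
ZRT1, second site: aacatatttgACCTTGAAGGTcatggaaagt
ZRT2, first site: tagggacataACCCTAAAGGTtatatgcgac
ZRT2, second site: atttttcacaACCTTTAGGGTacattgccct
ZRT3: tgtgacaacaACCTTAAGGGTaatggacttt
ZAP1: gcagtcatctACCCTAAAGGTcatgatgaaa
ZRC1: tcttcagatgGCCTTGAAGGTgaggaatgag
ZPS1, first site: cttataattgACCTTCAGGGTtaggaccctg
ZPS1, second site: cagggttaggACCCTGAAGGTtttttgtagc

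Counting positions from 1 at the 5′ end of the motif, with the base of the motif first, the first ZRT1 site, the first ZRT2 site, the ZAP1 site and the second ZPS1 site carry the same difference, T4C. The second ZRT2 site, the ZRT3 site and the first ZPS1 site carry its mirror image, A8G, and the ZRC1 site carries A1G. The exact ZRT1 site begins 204 bases before the start codon, at chrVII:20774-20784 on the plus strand, and the other ZRT1 site begins 319 bases before it, at chrVII:20659-20669. The sites of ZRT2 begin 311 and 262 bases before the start codon, that of ZRT3 155, that of ZAP1 144 and that of ZRC1 174. Both ZPS1 sites lie within 15 bases of each other, at 329 and 314 bases before the start codon. The stretch of the ZRT1 promoter that holds both of its sites, chrVII:20639-20938 of R64 on the plus strand, is given because ZRT1 changed most of the 9 genes, with the sites in capitals.
ZRT1 promoter: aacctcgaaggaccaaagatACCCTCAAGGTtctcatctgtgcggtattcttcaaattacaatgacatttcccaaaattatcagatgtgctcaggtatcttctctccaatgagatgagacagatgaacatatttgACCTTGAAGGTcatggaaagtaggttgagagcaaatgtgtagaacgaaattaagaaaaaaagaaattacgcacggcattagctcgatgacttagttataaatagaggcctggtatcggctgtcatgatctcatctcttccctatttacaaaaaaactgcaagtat

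The zinc genes did not move as a block. In the ulp1-I615N strain 5 of the 9 were lower (55.6%), among them the genes of all 3 uptake transporters, 3 were higher (33.3%) and 1 was not called, by edgeR's quasi-likelihood test with Benjamini-Hochberg adjustment over all 6139 tested genes. Among all tested genes 24.3% were lower and 26.4% higher. A fall of at least 1.5-fold was called for 3 of the 9 and for 4.45% of all tested genes. For a fall of at least 2-fold these were 2 of the 9 and 0.700% of all. The 9 genes were chosen with earlier results of these data known, so these shares describe the set and are not a test. The values of the mutant and wild-type libraries did not overlap for any of the 9, which was also so for 74.1% of all tested genes. On the log2 scale the median change of the 9 genes was -0.38, against 0.0097 over all tested genes. None of the 9 overlaps another annotated feature.

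**Figure D1:**
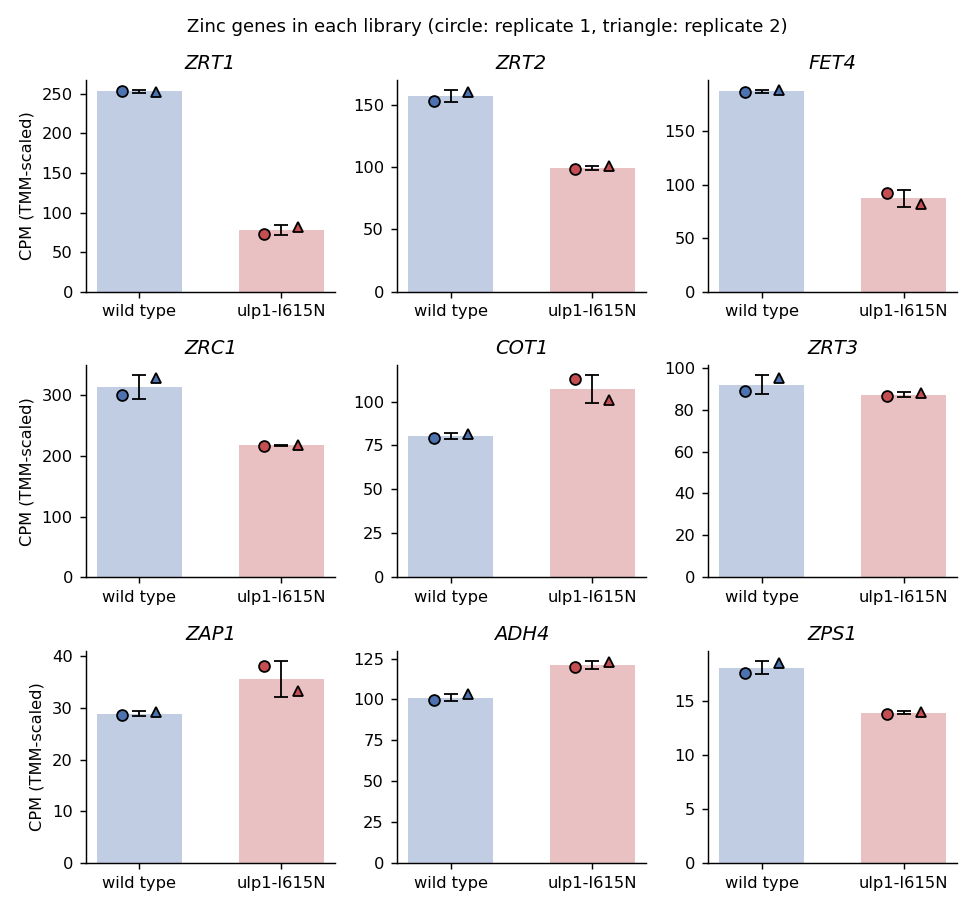
TMM-scaled CPM of each zinc gene in the wild-type and ulp1-I615N libraries. Bars are group means, error bars the SD of 2 libraries, circles replicate 1 and triangles replicate 2. The fall of ZRT1 from 253 to 77.5 CPM is the largest, and no gene has overlapping groups.

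Among the uptake genes ZRT1 fell most. ZRT1 (YGL255W, chromosome VII, 20978 to 22108, plus strand), the gene of the high-affinity zinc transporter of the plasma membrane, stood at 254 and 252 CPM in wild type, but at 72.9 and 82.0 CPM in the mutant. The counts behind these values were 3821 and 4569 for wild type, against 1021 and 2271 for the mutant. Both mutant libraries lay at about the same low level, and the groups were far apart compared with the spread inside them. The mean fell from 253 ± 1.92 to 77.5 ± 6.44 CPM (SD, n = 2 each), a log2 fold change of -1.70 ± 0.07 (SE, edgeR quasi-likelihood test, adjusted p = 1.44e-11). By size of fall this was rank 6 of the 6139 tested genes.

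FET4 came next. FET4 (YMR319C, chromosome XIII, 912880 to 914538, minus strand), the gene of the low-affinity iron transporter that also takes up zinc and copper, was at 186 and 188 CPM in wild type and at 92.6 and 81.7 CPM in the mutant. Its log2 fold change was -1.10 ± 0.07 (SE, edgeR adjusted p = 3.31e-09), a 2.15-fold fall and rank 27 of all tested genes by size of fall. FET4 is known to be controlled by iron through Aft1 and by oxygen through Rox1 besides zinc. The core of the Aft1 site, TGCACCC, occurs once in its 500-base window, 213 bases before the start codon at chrXIII:914745-914751. It is printed 5′ to 3′ on the minus strand, that of the gene, and is shown here in capitals because no other zinc gene of the 9 has it, against 2.32% of all promoters.
FET4: ccttcttaatTGCACCCattagtttag
The core of the Rox1 site, ATTGTTC, was found in the window of none of the 9 genes and of 11.8% of all promoters.

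ZRT2 fell less. ZRT2 (YLR130C, chromosome XII, 402794 to 404062, minus strand), which encodes the low-affinity zinc transporter, was at 153 and 160 CPM in wild type and at 98.4 and 101 CPM in the mutant. The libraries of each strain were close together, and the log2 fold change was -0.65 ± 0.06 (SE, edgeR adjusted p = 3.30e-07), a fall of 1.57-fold. In yeast, ZRT2 is known to be induced in mild zinc shortage and repressed by Zap1 itself in severe shortage, unlike ZRT1, which rises further.

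Per kilobase of coding length, which allows levels of different genes to be compared, the sum of the uptake genes ZRT1, ZRT2 and FET4 was 457 and 462 CPM per kb for wild type but 198 and 201 for the mutant, 2.30-fold lower. The make-up of that sum differed too. ZRT1 held 49.2% and 48.2% of it in wild type, against 32.6% and 36.1% in the mutant, whereas ZRT2 held 26.4% and 27.3% in wild type, against 39.2% and 39.4% in the mutant. The ratio of ZRT1 to ZRT2 per length was 1.86 and 1.76 in wild type, against 0.831 and 0.914 in the mutant, so ZRT1 had the higher level in both wild-type libraries and ZRT2 in both mutant libraries. These sums and ratios are descriptions of the 4 libraries without a test. All values are amounts relative to the RNA of the whole culture, in which a lower level in every cell and fewer cells with the transcript cannot be told apart.

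**Figure D2:**
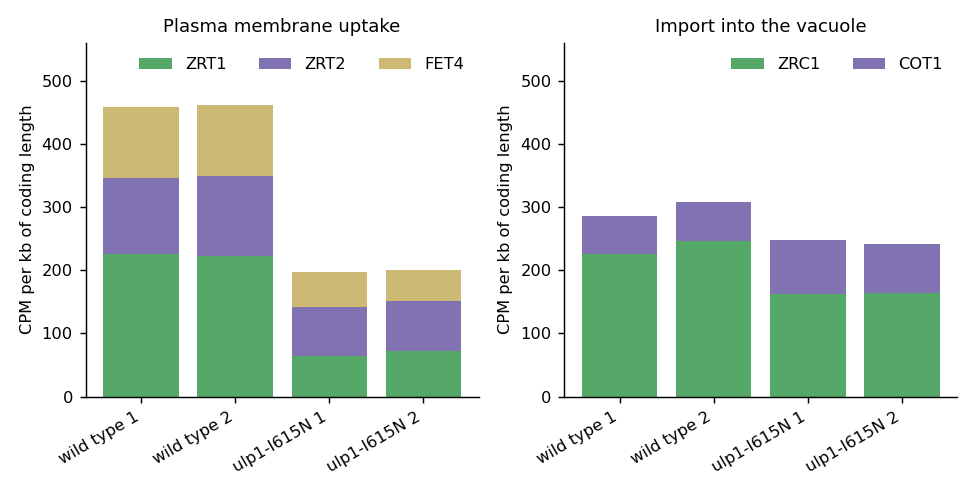
Levels per kilobase of coding length (CPM per kb), stacked by gene, in each of the 4 libraries, for uptake through the plasma membrane (left) and import into the vacuole (right). The uptake sum is 457 and 462 for wild type against 198 and 201 for the mutant, and the vacuolar sum 286 and 308 against 248 and 241.

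The genes of both transporters that load the vacuole moved in opposite directions. ZRC1 (YMR243C, chromosome XIII, 754838 to 756166, minus strand), the main vacuolar zinc importer and a Zap1 target, was at 300 and 327 CPM in wild type and at 216 and 218 CPM in the mutant. It fell by 0.53 on the log2 scale, with an SE of 0.06 (edgeR adjusted p = 4.06e-06). COT1 (YOR316C, chromosome XV, 906236 to 907555, minus strand), which encodes a related vacuolar transporter of cobalt and zinc, was at 79.0 and 81.6 CPM in wild type and at 113 and 101 CPM in the mutant. It rose 1.33-fold, by 0.41 ± 0.07 on the log2 scale (SE, edgeR adjusted p = 1.61e-04). COT1 held 20.9% and 20.1% of the per-length sum of both genes for wild type, against 34.4% and 32.0% for the mutant. The sum itself was 297 ± 15.7 CPM per kb in wild type and 244 ± 5.38 in the mutant (SD, n = 2 each).

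ZRT3 did not pass the test. ZRT3 (YKL175W, chromosome XI, 118793 to 120304, plus strand), whose product releases zinc from the vacuole, was at 88.7 and 95.0 CPM in wild type and at 86.3 and 87.8 CPM in the mutant. Its log2 fold change was -0.08 ± 0.07 (SE, edgeR adjusted p = 0.365), which with 2 SE on either side spans -0.21 to 0.06, and it was 0.06 with library totals as the only scaling (edgeR adjusted p = 0.576). The ratio of ZRC1 to ZRT3 per length was 3.85 and 3.92 in wild type, against 2.85 and 2.82 in the mutant.

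**Figure D3:**
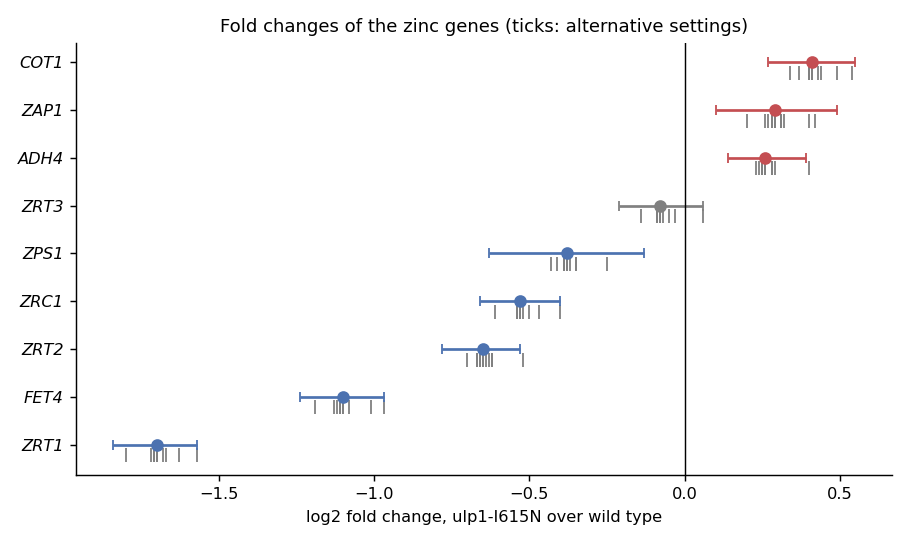
Log2 fold changes of the 9 zinc genes, ulp1-I615N over wild type, with bars of 2 SE on either side, red for genes that were higher, blue for lower and grey for not called. Ticks under each point are the values under 13 alternative settings, and only the ticks of ZRT3 reach both sides of 0.

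ZAP1 was higher in the mutant, yet lower than most genes of its chromosome were relative to wild type. ZAP1 (YJL056C, chromosome X, 330431 to 333073, minus strand) encodes the zinc-responsive activator of most of the other genes and of its own gene. The ZAP1 transcript was at 28.6 and 29.2 CPM in wild type and at 38.1 and 33.2 CPM in the mutant. The mutant libraries lay above the wild-type libraries but differed from each other more than those did. The log2 fold change was 0.29 ± 0.10 (SE, edgeR adjusted p = 0.0206). This call ended without wild type replicate 1 (0.26, edgeR adjusted p = 0.0506), without mutant replicate 1 (0.20, adjusted p = 0.225) and with DESeq2 (0.28, adjusted p = 0.0936), and it held under 10 of 13 alternatives.

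The log2 fold changes of the 373 tested genes of chromosome X had a median of 0.73, and 90.6% of them were higher, against 22.3% of the 5766 genes elsewhere. ZAP1 was 0.44 below that median and stood at rank 33 from the lowest, with 32 genes (8.58%) under it and with the quartiles of the chromosome at 0.50 and 1.01. Among the 20 tested genes around it, 10 on either side, the log2 fold changes ran from 0.08 to 3.17 with a median of 0.84, and 1 was lower than that of ZAP1. Its immediate neighbours were IKS1, a gene for a putative kinase, at 1.51 ± 0.10 and LOG1 at 0.61 ± 0.06 (SE, edgeR adjusted p = 5.04e-09 and 6.03e-07). Library by library, ZAP1 was 0.39 and 0.19 above its wild-type mean on the log2 scale in mutant replicates 1 and 2, while the median gene of the chromosome was 0.71 above in each. The position of ZAP1 among the genes of its chromosome is a description without a test.

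**Figure D4:**
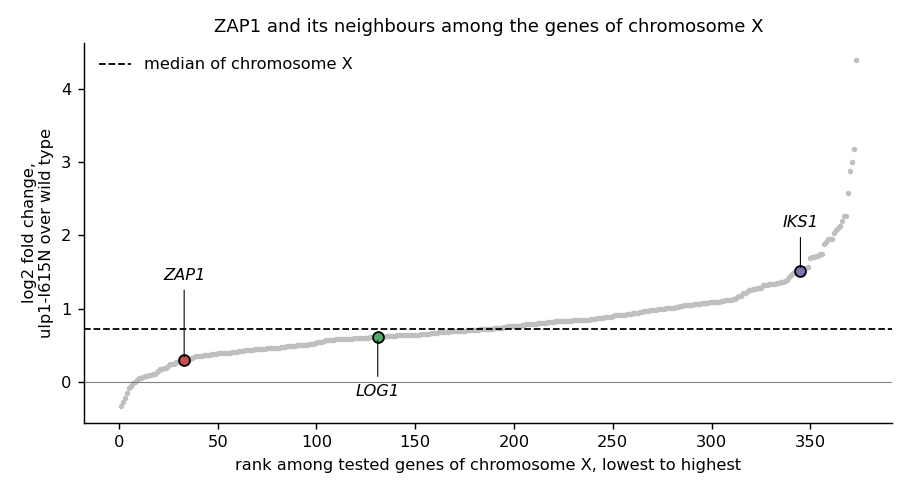
Log2 fold changes, ulp1-I615N over wild type, of the 373 tested genes of chromosome X in order of size, with ZAP1 and its neighbours LOG1 and IKS1 marked. The dashed line is the chromosome's median of 0.73, and ZAP1 lies under it at 0.29.

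The other targets, ADH4 and ZPS1, moved by small amounts in opposite directions. ADH4 (YGL256W, chromosome VII, 15159 to 16307, plus strand), an alcohol dehydrogenase gene known for strong induction in zinc shortage, was at 99.7 and 103 CPM in wild type and at 120 and 123 CPM in the mutant. It rose 1.20-fold (log2 fold change 0.26 ± 0.06 SE, edgeR adjusted p = 0.0024). ZPS1 (YOL154W, chromosome XV, 34658 to 35407, plus strand) was at 17.6 and 18.5 CPM in wild type and at 13.8 and 14.0 CPM in the mutant, with 193 to 387 counts per library. It was 1.30-fold lower (log2 fold change -0.38 ± 0.13 SE, edgeR adjusted p = 0.0189). The ZPS1 call ended under 5 of 13 alternatives, namely library totals (-0.25, adjusted p = 0.137), DESeq2 (-0.39, adjusted p = 0.0637) and the omission of wild type replicate 2 (-0.35, adjusted p = 0.0855), of mutant replicate 1 (-0.37, adjusted p = 0.0556) or of mutant replicate 2 (-0.39, adjusted p = 0.0613).

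The order of the levels per length differed between the strains. In wild type ZRC1 led at 236 ± 14.3 CPM per kb (SD, n = 2), followed by ZRT1 at 224 ± 1.70, ZRT2 at 123 ± 3.84, FET4 at 112 ± 0.851 and ADH4 at 88.0 ± 1.75. COT1 and ZRT3, both at 60.8 CPM per kb, could not be separated, with SDs of 1.43 and 2.91, and ZPS1 at 24.1 ± 0.815 and ZAP1 at 10.9 ± 0.184 were lowest. ZRC1 and ZRT1 were close, since their libraries ran from 226 to 246 and from 223 to 225. In the mutant ZRC1 still led, at 163 ± 0.589 CPM per kb, and ADH4 was second at 106 ± 2.18. COT1 at 81.1 ± 5.96 and ZRT2 at 78.4 ± 1.25 overlapped, ZRT1 followed at 68.5 ± 5.69, then ZRT3 at 57.6 ± 0.699 and FET4 at 52.5 ± 4.64, and ZPS1 and ZAP1 were again lowest. Among all tested genes the level of ZRT1 stood at the 88.2 percentile in wild type and at the 65.1 percentile in the mutant, and that of ZAP1 at the 14.9 and 15.7 percentiles.

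Adjacent genes did not share the change of ZRT1. ADH4 lies 4670 bases before it on chromosome VII, with no other tested protein-coding gene between them, and the ratio of ZRT1 to ADH4 per length was 2.59 and 2.49 in wild type, against 0.620 and 0.677 in the mutant. On the other side, 195 bases after ZRT1, FZF1, which encodes a transcription factor for sulfite export, was at 0.27 ± 0.10 (SE, edgeR adjusted p = 0.0441). MNT2, a mannosyltransferase gene 1001 bases before ADH4, was at -0.26 ± 0.07 (SE, edgeR adjusted p = 0.00407). MNT2 is also among the further Zap1-activated genes described below, and a ZRE with 1 mismatch begins 494 bases before its start codon. The nearest tested protein-coding genes on either side of ZPS1 were both higher. HPF1, a cell wall protein gene 3051 bases before it, was at 0.27. FRE7, a copper-regulated metal reductase gene 5340 bases after it, was at 1.77 ± 0.17 (SE, edgeR adjusted p = 0.00106). FET4 lies 9.9 kb, ADH4 15.2 kb, ZRT1 21.0 kb and ZPS1 34.7 kb from the nearest chromosome end, and the other 5 genes lie at 118.8 kb or more.
Among the neighbours of the remaining genes, YMR320W beside FET4 was at -0.93, SFG1 beside COT1, a gene for a growth regulator, at -0.97, DIP2 beside ZRT2 and RPL20A beside ZRC1, both of ribosome production, at -0.47 and -0.48, and LST4 beside ZRT3 at -0.22, each lower by edgeR's test (adjusted p from 8.26e-09 to 0.00822). ADH6 beside FET4, TPO5 beside ZRT3, YMR244W beside ZRC1 and YOR316C-A beside COT1 were not called.

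Further genes known to be activated by Zap1 were found in both directions. Of 16 such genes 7 were lower, 5 higher and 4 not called, beside 24.3% lower and 26.4% higher among all tested genes, and the median on the log2 scale was -0.11. With library totals as the only scaling 3 were lower, and without wild type replicate 2 there were 3 higher. How this list differs from the 9 genes was not tested. The largest falls were those of the IZH genes, which encode membrane proteins linked to zinc and sterol balance. IZH1 was at 184 ± 8.26 CPM in wild type and 98.8 ± 2.34 CPM in the mutant (SD, n = 2 each), a log2 fold change of -0.90, IZH4 was at -0.61 and IZH2 at -0.50 (edgeR adjusted p = 1.28e-08, 0.00188 and 6.89e-05). IZH1 overlaps another annotated feature, so its count is uncertain. This also holds for ARN2, CUP2, RPS22B, PKH2 and PAC2, which are named further below. ZRG8 rose by 0.81 and ICY2, also called ATG41, by 0.58 (edgeR adjusted p = 2.99e-06 and 3.63e-05). The peroxiredoxin gene TSA1 was at 0.27, the lipid phosphatase gene DPP1 at 0.24, and ZRG17, of a zinc transporter of the endoplasmic reticulum, at -0.24. YOL131W was also called higher, but on 4 and 3 counts in wild type against 16 and 25 in the mutant, too few for a fold change. The flap endonuclease gene RAD27 was at -0.28, and PIS1, MCD4, CKI1 and VEL1 were not called.

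Over the genome, genes with such a site in the promoter were found in both directions. Of 117 tested genes with at most 1 mismatch in their window 25.6% were lower and 33.3% higher, with a median log2 fold change of 0.03. These include 6 of the 9 zinc genes, and without them 23.4% of 111 were lower and 34.2% higher, with a median of 0.05. Of 5656 tested genes without such a site 25.4% were lower and 27.4% higher, with a median of 0.01. The 9 genes with an exact match comprised 3 lower (ZRT1 at -1.70, ZRG17 at -0.24 and PAN1 at -0.18), 2 higher (SDH8 at 0.84 and PCD1 at 0.83) and 4 not called. The core of the stress response element, AGGGG, which Msn2 and Msn4 bind, was found in the window of none of the 9 zinc genes and of 34.1% of all promoters. Such matches describe letters and not binding.

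Of 5 genes known to be lowered in zinc shortage 4 were lower in the mutant and 1 was not called, beside 24.3% lower among all tested genes, and their median was -0.27. With library totals as the only scaling 2 of the 5 were lower. ADH1, the main fermentative alcohol dehydrogenase and an abundant zinc protein, was at 12100 ± 342 CPM in wild type and 9420 ± 205 CPM in the mutant (SD, n = 2 each), a log2 fold change of -0.36 (edgeR adjusted p = 0.00342), opposite in sign to ADH4. The mitochondrial isoenzyme gene ADH3 was at -0.27, and the sulfate assimilation genes MET14 and MET3 at -1.02 and -0.23. MET3 lies on chromosome X.
Of 12 genes of zinc enzymes 6 were lower, 3 higher and 3 not called, with a median of -0.12. Among all tested genes 24.3% were lower and 26.4% higher. With library totals as the only scaling 4 of the 12 were lower and 4 higher. Among the 12 genes SOD1, the copper and zinc superoxide dismutase gene on chromosome X, was at 1.33 and the vacuolar aminopeptidase gene APE1 at 1.34. The methionine synthase gene MET6 was at -1.01, ADH2 at -0.49, the aldolase gene FBA1 at -0.39 and ADH1 as above.

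**Figure D5:**
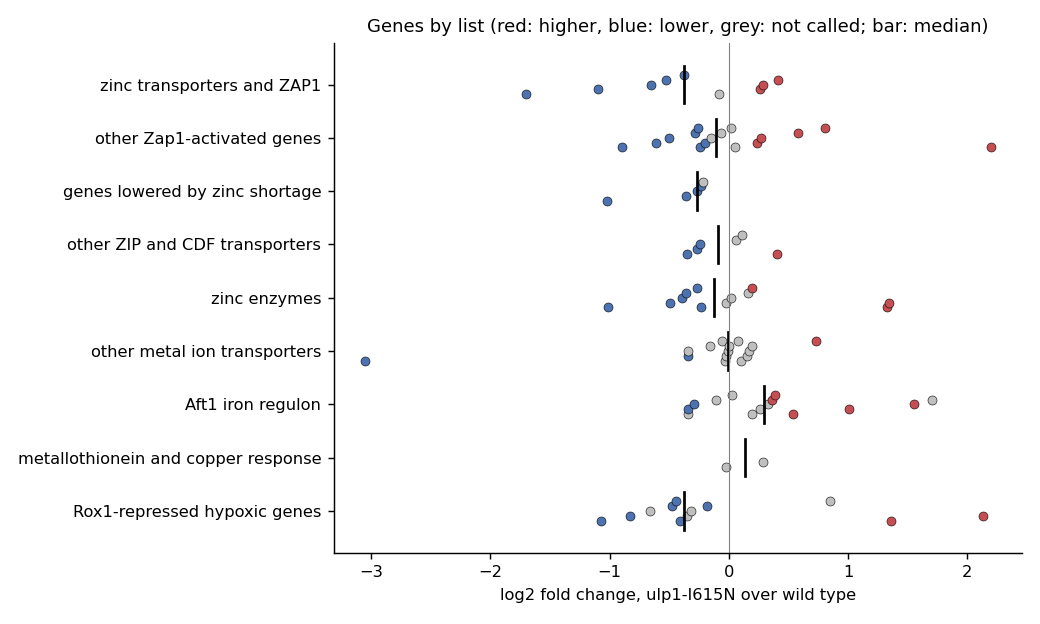
Log2 fold changes, ulp1-I615N over wild type, of each tested gene in the 9 zinc genes and in 8 related lists. Points are genes, red higher, blue lower and grey not called, and bars are list medians, which run from -0.38 for the zinc genes and the hypoxic genes to 0.29 for the iron regulon.

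In the ZIP and CDF transporter families, to which Zrt1 to Zrt3 and Zrc1 and Cot1 belong, the 6 further genes comprised 3 lower, 1 higher and 2 not called (median -0.09). These were the mitochondrial metal transporter gene MMT1 at -0.35, the Golgi manganese transporter gene ATX2 at -0.27, ZRG17 at -0.24, and YKE4, a zinc transporter gene of the endoplasmic reticulum, at 0.40 (edgeR adjusted p = 0.00168, 0.0321, 0.0367 and 7.54e-04). The lower genes numbered 1 with DESeq2 or with scaling factors from genes outside chromosome X, and with library totals in edgeR they numbered 0 and the higher genes 2, with 1 lower at an unadjusted p under 0.05. The 15 transporter genes for other metals comprised 2 lower, 1 higher and 12 not called (median -0.01), against 24.3% lower and 26.4% higher among all tested genes. The count of higher genes was not stable, at 5 with library totals as the only scaling, 3 with scaling factors from genes outside chromosome X, 4 without wild type replicate 2 and 2 without mutant replicate 1, and that of lower genes was 4 without wild type replicate 1. The manganese transporter gene SMF1 rose by 0.73 and the iron permease gene FTR1 fell by 0.34 on the log2 scale (edgeR adjusted p = 3.19e-07 and 0.00106). PHO84, a phosphate transporter gene whose product can also carry zinc with low affinity, stood at 714 ± 37.6 CPM in wild type and 86.5 ± 4.41 CPM in the mutant (SD, n = 2 each), a fall of 8.27-fold (edgeR adjusted p = 6.62e-14) and larger than that of any of the 9 zinc genes.

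Because FET4 is shared with the iron and oxygen responses, those regulons were set beside it. Of 14 genes of the Aft1 iron regulon 5 were higher, 2 lower and 7 not called, with a median of 0.29, beside 26.4% higher and 24.3% lower among all tested genes. Without wild type replicate 2 there were 9 higher, and 1 was lower without mutant replicate 1, with scaling by library totals alone or with DESeq2. Among those called higher, the heme oxygenase gene HMX1 at 1.55 and the mRNA decay factor gene TIS11 at 1.01 led. SIT1, ARN1 and ARN2 of siderophore uptake followed at 0.54, 0.39 and 0.36 (edgeR adjusted p from 2.75e-11 to 0.0117). FIT2 had a larger log2 fold change, 1.7 ± 0.61 (SE), but was not called (edgeR adjusted p = 0.158). Its wild-type libraries were at 13.4 and 36.9 CPM and its mutant libraries at 76.9 and 88.5 CPM. FTR1 at -0.34 and the reductase gene FRE2 at -0.29 were lower, in the direction of FET4. Of 12 hypoxic genes known or thought to be under Rox1, ROX1 included, 6 were lower, 2 higher and 4 not called, with a median of -0.38. OLE1, the fatty acid desaturase gene, was at -1.07, AAC3 at -0.83, ROX1 itself at -0.48, TIR4 at -0.44 and HEM13 at -0.41, whereas CYC7 and COX5B were at 2.13 and 1.36. In the metallothionein list the CUP1-1 and CUP1-2 copies did not enter the test. Counting was done without the option for multi-mapping fragments, so the expression of these copies cannot be read here. CRS5 and CUP2 were at -0.02 and 0.29 (edgeR adjusted p = 0.935 and 0.116).

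By closeness of pattern, measured as the Euclidean distance between log2 CPM values centred on the wild-type mean over the 4 libraries, the genes nearest to ZRT1 among 5731 were SPL2, a regulator of phosphate uptake (distance 0.200), YER138W-A (0.268), VTC3 of polyphosphate synthesis (0.308), the ribosomal protein gene RPS22B (0.309) and the ferric reductase gene FRE4 (0.431). Nearest to ZAP1 were CIP1, RAD54, PXA1, PKH2 and APP1, all within 0.05 and none on chromosome X. Nearest to ZPS1 were NAM7, PAC2, ADH1, TDA9 and AUR1, all within 0.027. With 4 libraries this distance reflects little more than the size of the change. SPL2 had a log2 fold change of -2.02, against -1.70 for ZRT1, at means of only 7.7 CPM in wild type and 1.85 CPM in the mutant. At so low a level the pseudocount of 0.5 CPM shrinks the fall that enters the distance.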

How the data were processed

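Per the file headers, the authors deposited raw fragment counts per gene, made with featureCounts 2.0.0 on read pairs without the options for strand, multi-mapping fragments or overlapping features, which leaves antisense and repeated sequences uncertain. HISAT2 2.1.0, Subread 2.0.0 and sacCer3 are named, per the submitters' processing notes; no annotation version is given in the sources used here. All 9 zinc genes had the same start and end in RefSeq R64, and 6048 of 7126 features matched it by locus tag. Groups and replicate numbers come from sample titles.

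Counts were tested with edgeR 4.0.16 (R 4.3.3, quasi-likelihood F test, robust, TMM scaling, minimum count 10, minimum total count 15, no replicate block, Benjamini-Hochberg adjustment over 6139 genes, threshold 0.05), checked on simulated data; SEs were derived from the F statistics. CPM are TMM-scaled, and distances used a pseudocount of 0.5 CPM and genes averaging at least 50 counts. Alternatives included DESeq2 1.42.0 and limma 3.58.1. Lists were compared by counts and medians. The genes named are the 9 zinc genes, their neighbouring tested protein-coding genes (some not reported here), up to 6 called genes of each list by size of change, and the nearest patterns of ZRT1, ZAP1 and ZPS1; others were chosen after their values were seen. The motif searches were also chosen then. The members and lists were chosen with earlier results of these data known.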

Additional observations from a re-analysis of the deposited data

How the results depend on the processing

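Of 13 alternatives, all kept the calls and directions of ZRT1 (log2 fold change -1.80 to -1.57), FET4 (-1.19 to -0.97), ZRT2 (-0.70 to -0.52), ZRC1 (-0.61 to -0.40), COT1 (0.34 to 0.54) and ADH4 (0.23 to 0.40). With library totals only, ZRT3 was 0.06, ZPS1 -0.25, 866 genes were lower, and counts became 3 lower of the further Zap1 targets, 2 lower of the genes lowered in zinc shortage, 2 higher and 0 lower of the ZIP and CDF relatives, 5 higher of the other metal transporters, 1 lower of the iron regulon and 1 higher of the metallothionein list; the median of all genes shifted by 0.13. TMM without chromosome X gave 1 lower of the ZIP and CDF relatives and 3 higher of the other metal transporters. DESeq2 gave 0.28 for ZAP1 and -0.39 for ZPS1, neither called, and 1 lower each of the ZIP and CDF relatives and the iron regulon. With 1 library left out, which takes the lone library of a group to vary like the other pair, 2 to 3 of the 9 zinc genes were higher and 4 to 5 lower, ZAP1 ran from 0.20 to 0.40 and ZPS1 from -0.43 to -0.35, and counts ran from 3 to 5 higher for the further Zap1 targets, 1 to 4 higher and 2 to 4 lower for the other metal transporters, and 6 to 9 higher and 1 to 3 lower for the iron regulon. The cause was not tested. The labels do not say that replicate numbers pair the libraries. Deviations of same-numbered libraries correlated at 0.131 over 5732 genes. With the replicate block, 1776 genes were higher and 1657 lower, 3 higher of the other metal transporters and 9 higher of the iron regulon, and the calls of the 9 zinc genes stayed as they were (ZRT1 at -1.70, ZAP1 at 0.29). ZPS1 and ZAP1 had the fewest counts of the 9 zinc genes, 193 to 918 per library, and the largest SEs, 0.13 and 0.10. With all libraries thinned to the smallest total both calls stayed. ZPS1 was then at -0.41 and ZAP1 at 0.31 (edgeR adjusted p = 0.0175 and 0.0214).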
